A study of Mus musculus with 12 samples.

Results

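The Ikaros-silenced baseline of the mouse T-cell acute lymphoblastic leukemia (T-ALL) ALL101 was described from its untreated animals alone, which are 6 of the 12 libraries of the series. ALL101 is 1 primary leukemia of the genotype Vav-tTA;TRE-GFP-shIkaros. In this design a transactivator under the Vav promoter, which is active across blood cells, keeps a short hairpin RNA joined to GFP switched on, which silences Ikaros, the zinc-finger factor made from Ikzf1, for as long as no doxycycline is given. The 3 recipient mice carried this leukemia, received no doxycycline and had their spleen cells sorted as GFPhigh, per the labels. The other 3 mice of the series received doxycycline for 3 days and enter only the check of the hairpin's target. Each RNA was sequenced in 2 runs, which were summed, so n is 3 animals. The labels give no age, sex or recipient strain. All 3 animals carry the same leukemia, so the spread given here is between recipients of it and not between leukemias. No library is of normal T cells or of a leukemia without the hairpin, and no level below is a change from such a state.

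T-ALL arises from immature T cells of the thymus. These cells pass from a double negative (DN) stage without CD4 and CD8, where the T-cell receptor beta chain is rearranged and Notch signalling is needed, to a double positive (DP) stage with both, where the alpha chain is rearranged, and then to mature single positive cells. Notch receptors release an intracellular fragment that joins the DNA-binding protein Rbpj and switches on targets such as Hes1, Dtx1 and Myc, and activating Notch1 mutations are frequent in T-ALL. Ikaros binds many of the same genes, and its loss is a recurrent event in lymphoid leukemia.

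The untreated animals held 30133066, 33063390 and 29904744 counts. Levels are given as RPKM, the counts per kilobase of gene length per 1000000 counts of that animal, and a gene at a mean of 1 RPKM or more is called expressed. Of 27179 genes, 10938 (40.2%) were expressed, 6706 (24.7%) reached 10 RPKM and 833 (3.06%) reached 100 RPKM. Among protein-coding genes 9988 of 20983 (47.6%) were expressed. A count of 0 in a gene of 2 kb allows up to 0.0454 to 0.0502 RPKM (3 counts), for counting error only. The 100 genes with most counts took between 14.7% and 15.005% of the counts. The library name of untreated animal 3 carries INJ where those of the other 5 animals carry the GFP-sort wording, and whether it was sorted in the same way is not known here. This animal also stood furthest from the others, so the total number of expressed genes with a 2-fold range is given with and without it. Counts of such genes within lists or at higher levels are over all 3 animals. Where genes have near-identical copies, reads can be split or lost, and their levels are uncertain.

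Ikzf1, the hairpin's target, was detected in all untreated animals, at 29.3, 29.1 and 30.9 RPKM (mean 29.8 ± 0.971, SD, n = 3). The 3 animals given doxycycline held 279, 296 and 288 RPKM, so the groups did not overlap, in the direction of the labels. Protein was not measured. Ikzf1 lies on chromosome 11 at 11684962 to 11772930 of GRCm38. Ikzf3, encoding the related factor Aiolos, had the highest level of the family at 86.8, 87.0003 and 96.04 RPKM, which was 2.96, 2.99 and 3.11 times that of Ikzf1 in the same animal. Ikzf2, encoding Helios, stood at 15.1, 13.4 and 12.1 RPKM and Ikzf5, encoding Pegasus, at 12.5, 12.4 and 12.2 RPKM. Ikzf4, encoding Eos, stayed under 1 RPKM at 0.501, 0.625 and 0.5604. Vav1, whose promoter lends its name to the transactivator, held 54.7, 58.2 and 58.8 RPKM.

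The most abundant transcripts combined the translation and cytoskeletal genes of growing cells with T-cell genes. Genes of at least 300 bases were ranked by mean RPKM, which left 26034 genes, and Tcf7, encoding the T-lineage factor TCF-1, took rank 12 at 1546, 1579.9 and 1665 RPKM (mean 1597 ± 61.1). With ribosomal and mitochondrial genes and unnamed loci set aside, the genes above it were Eef1a1, the translation elongation factor, at 2650.1, 2572 and 2342 RPKM, the chaperone gene Hsp90ab1 at 2369, 2289 and 2295 RPKM and the beta variable segment Trbv12-1 at 1799.99, 1596 and 1520.2 RPKM. The beta-chain constant genes Trbc1 (1472, 1396 and 1377 RPKM) and Trbc2 (1147, 1186 and 1172 RPKM) were among the 20 highest, as were the surface gene Thy1 (1024, 1024 and 998.98 RPKM) and Ly6e, encoding another GPI-anchored surface protein (1229, 1240.2 and 1155 RPKM). Gzma, encoding the granule protease granzyme A, held rank 18 at 1590.4, 1415 and 928 RPKM, and animal 3 was the lowest. The rest of the 20 were Rpl37rt, a copy of a ribosomal protein gene whose symbol the family pattern does not take, and Actb, Eef2, Atp5b, Pfn1, Cfl1, Pabpc1, Rack1, Eif5a, Ptma and Atp5g3, with means from 742 RPKM for Atp5g3 to 1585 RPKM for Actb. With ribosomal and mitochondrial genes included, Rpl8 led at 2878, 3006 and 3094 RPKM, followed by mt-Co1 at 2608, 2889.5 and 3254 RPKM, the latter lowest in animal 1 and highest in animal 3.

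**Figure D1:**
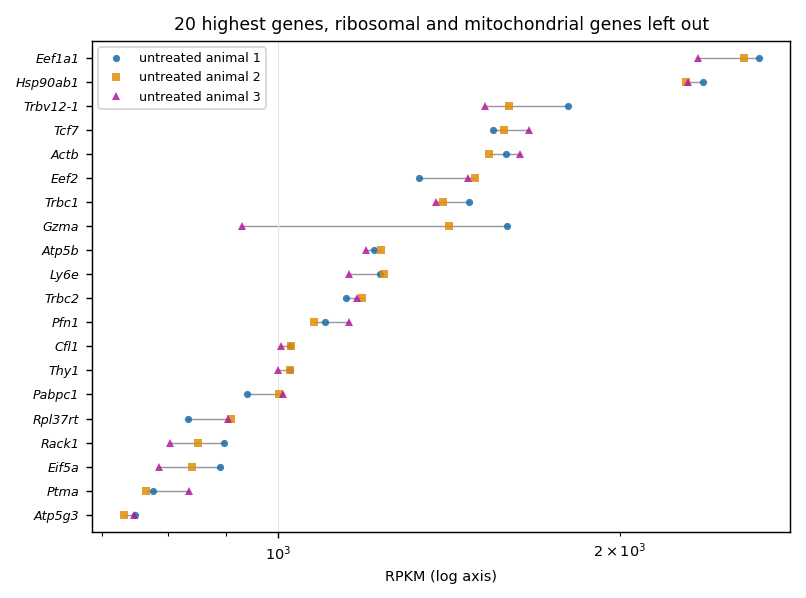
RPKM (log axis) of the 20 highest genes of at least 300 bases, with ribosomal protein genes by family pattern and mitochondrially encoded genes left out; each point is 1 untreated animal and the grey line spans the 3. Tcf7 is the highest transcription factor, and the widest span is that of Gzma, from 928 RPKM in animal 3 to 1590.4 RPKM in animal 1.

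The ranking is uncertain for genes with near-identical copies, and whether copies took or lost reads was not tested. Of 89 ribosomal protein genes, 85 were expressed and 46 reached 100 RPKM, against 40.2% and 3.06% of all genes. Yet 22 of them stood under 20 RPKM, among them Rpl5 at 16.5, 14.95 and 13.8 RPKM. Gapdh, a glycolytic enzyme gene with many processed copies, was at 3.88, 4.64 and 5.13 RPKM. In the same animals, 307 annotated pseudogenes were expressed. They were 193 of 436 pseudogenes (44.3%) and 114 of 391 transcribed pseudogenes (29.2%), where 40.2% of all genes were expressed. Of the 307, 45 reached 100 RPKM, as did 833 of all 27179 genes (3.06%).

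T-cell identity was clear in every animal. All 16 genes of the T-cell receptor signalling list were expressed, against 40.2% of all genes and 47.6% of protein-coding genes, and 15 reached 10 RPKM. The lists were chosen with earlier results of these data known, so their shares are descriptions and not tests. Of the CD3 chains, Cd3g held 509, 537 and 501 RPKM, Cd3d 266, 268 and 276 RPKM and Cd3e 211, 229 and 251 RPKM. Cd247, encoding the zeta chain of the same complex, was lower than each of them in every animal at 50.4, 45.7 and 43.2 RPKM. Lck, the kinase that phosphorylates the CD3 chains, stood at 541, 559 and 599 RPKM, the adaptor Lat at 401, 401 and 411 RPKM and the kinase Zap70 at 96.1, 100.6 and 110.1 RPKM. The lower members included Fyn, Prkcq, Lcp2 and Cblb, with means from 12.9 to 50.4 RPKM, and Txk at 3.401, 2.04 and 4.25 RPKM, the list's lowest gene and its member with a range of at least 2-fold. Ptprc, Csk and Trat1 lay between, at means of 171, 126 and 69.6 RPKM. None of these levels separated animal 3 from the others by 2-fold.

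Most pan-T surface genes were expressed. Of 11 pan-T surface genes, 9 were expressed, against 47.6% of protein-coding genes. None of the 9 had a 2-fold range between animals, where only 3.83% of all expressed genes had one. Cd2 stood at 138, 113 and 115 RPKM, Cd27 at 112, 107 and 109.7 RPKM and Cd5, a negative regulator of receptor signalling, at 47.6, 42.3 and 40.9 RPKM. Cd6 and Cd28 had means of 34.4 and 31.5 RPKM, Cd96 one of 12.2 RPKM and Pdcd1, encoding the inhibitory receptor PD-1, 13.5 RPKM. Cd7 was barely expressed at 1.97, 1.77 and 1.16 RPKM. The activation-induced genes Icos and Ctla4 had means of 0.602 and 0.302 RPKM. Among 88 genes with a CD-numbered symbol, 40 (45.5%) were expressed, near the 47.6% of protein-coding genes, and the 15 highest were Cd3g, Cd3d, Cd24a, Cd3e, Cd164, Cd8a, Cd2, Cd27, Cd81, Cd8b1, Cd47, Cd82, Cd247, Cd5 and Cd6. Cd164, encoding the sialomucin endolyn, was at 254, 221 and 173 RPKM, while the tetraspanin gene Cd81 was at 93.98, 93.2 and 92.8 RPKM and varied little.

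Receptor segments were dominated by a few beta segments. Trbv12-1 took 86.0%, 84.3% and 83.3% of all counts on beta variable segments (totals of 23451, 23284 and 20299). Trbv5 took 12.3%, 13.9% and 14.3%, Trbv4 took 1.69%, 1.78% and 2.09%, and 7 of 24 segments had any count. The same order held in each of the 3 animals. Trbd2 held all counts on the 2 beta diversity segments. Trbj1-4 took 35.1%, 32.6% and 31.8% of the counts on joining segments and Trbj2-1 25.1%, 23.4% and 23.6%. Joining and diversity segments are at most 66 bases long, so few counts give a high RPKM, and they are described by counts. Of the segments named alike, Trbv12-2 held 0, 0 and 2 counts where Trbv12-1 held 20177, 19629 and 16912.

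The alpha locus was expressed at a lower level than beta. Trac, the alpha constant gene, held 173.6, 130.4 and 136.8 RPKM, and the sum of Trbc1 and Trbc2 was 15.1, 19.8 and 18.6 times as high. Alpha variable segments took 1342, 1200 and 892 counts, of which the Trav13 family, whose 13 members are closely related, so that reads can be split among them, took 91.2%, 91.3% and 88.5%. Traj42 was the leading joining segment with 57.5%, 54.0% and 40.2% of 583, 441 and 443 counts. Gamma segments took 1778, 1434 and 614 counts, and animal 3 was the lowest. The gamma constant gene Trgc2 was at 39.5, 37.04 and 17.4 RPKM, Trgc1 at 24.3, 11.4 and 6.46 RPKM and Trgv2 at 27.8, 26.01 and 10.6 RPKM. All 10 delta segments, which lie within the alpha locus, had 0 counts in each animal. Of 234 receptor segments, 104 had no count and 63 were at 1 RPKM or more. Of the 63, 42 were joining or diversity segments, some of which pass on a handful of counts, such as Traj33 with 0, 0 and 6.

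Genes of receptor rearrangement were expressed along with the pre-T-cell receptor. Rag1, a subunit of the recombinase, held 135, 135 and 138 RPKM with a standard deviation of 1.46 RPKM. Its partner Rag2 was at 5.13, 5.94 and 7.31 RPKM, and the ratio of Rag1 to Rag2 was 26.3, 22.8 and 18.8. Dntt, the terminal transferase that adds bases at the joints, stood at 328, 334 and 346 RPKM. Ptcra, the surrogate alpha chain that pairs with beta before alpha is rearranged, stood at 88.95, 90.4 and 114 RPKM. Animal 3 was the highest for all 4 genes, by less than 2-fold.

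Most genes of the DN2 and DN3, DP and mature stage lists were expressed, while the early progenitor genes were mostly under 1 RPKM. Of 19 genes of the early T-cell progenitor and DN1 list, 2 were expressed, against 9 of 11 on the DN2 and DN3 list, 14 of 14 on the DP list and 13 of 18 on the mature single positive list. As shares these were 10.5%, 81.8%, 100% and 72.2%, where 40.2% of all genes were expressed. These counts were the same without animal 3. Bulk counts cannot tell a mixture of cells at several stages from cells that hold these transcripts together, and fewer cells of a type cannot be told apart from less RNA per cell. The expressed progenitor genes were Kit, the stem cell factor receptor, at 8.24, 9.48 and 3.097 RPKM and the basic helix-loop-helix gene Lyl1 at 2.75, 2.28 and 1.63 RPKM. Kit was lowest in animal 3, by 2-fold or more from both others. Cd44, Nfe2, Spi1, Lmo2, Tal1, Gfi1b and Flt3 had means from 0.1203 to 0.716 RPKM, and Hhex, Bcl11a, Cd34, Gata2, Mef2c, Meis1, Mycn, Erg and Hoxa9 lay at or below 0.0848 RPKM.

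Of the DN2 and DN3 genes, Cd24a, encoding heat stable antigen, was at 237, 238 and 224 RPKM and Tcf12, encoding the E protein HEB, at 161, 161 and 147 RPKM. Il2ra, encoding CD25, the marker of these stages, was at 53.1, 73.4 and 110.3 RPKM and highest in animal 3. Il7r, encoding the receptor chain for interleukin-7, was at 59.8, 57.4 and 28.9 RPKM, with animal 3 the lowest. Spib and Erg were the members not expressed. Among the 9 expressed members, Dtx1, Il2ra and Il7r had a range of at least 2-fold, where 3.83% of all expressed genes had one.

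Of the DP genes, the coreceptor chains Cd8a (132, 132 and 162 RPKM) and Cd8b1 (61.7, 66.6 and 93.3 RPKM) stood above Cd4 (27.8, 28.4 and 42.5 RPKM) in every animal. The ratio of Cd8a to Cd4 was 4.76, 4.66 and 3.83. Satb1, a chromatin organiser of thymocytes, held 141, 135 and 141 RPKM. Themis, which tunes receptor signals during selection, was at 64.1, 56.4 and 55.3 RPKM, Aqp11 at 50.98, 57.97 and 51.2 RPKM, Arpp21 at 27.3, 26.8 and 27.9 RPKM and Cd1d1 at 9.55, 8.72 and 9.84 RPKM. The chemokine receptor gene Ccr9 was at 25.6, 13.8 and 22.8 RPKM, the E protein inhibitor Id3 at 43.8, 30.4 and 46.2 RPKM and Bcl6 at 3.12, 4.23 and 5.72 RPKM. Animal 3 was the highest for 11 of the 14 DP genes, where it was the highest for 39.1% of all expressed genes.

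Genes of mature T cells differed widely in level, and 5 of the 18 reached 10 RPKM, where 24.7% of all genes did. Of the members named here, Klf3, Gimap6, Slfn2, Gimap4 and Gimap5 had means from 9.98 to 35.8 RPKM, and Foxo1, Itgb7, Runx3 and Zbtb7b from 2.67 to 8.11 RPKM. These ranges cover the named genes alone and are not those of the whole list. Klf2, an activator of egress genes, was at 2.94, 1.78 and 3.02 RPKM, and its target S1pr1, the receptor that guides exit from the thymus, was at 0.153, 0.0499 and 0.0883 RPKM. Ccr7 and Cd69 were just above 1 RPKM at 1.83, 1.47 and 1.63 and 1.04, 1.59 and 1.26 RPKM. Foxp3, the regulatory T-cell factor, had a mean of 0.0272 RPKM. Of the genes of gamma-delta and innate-like T cells, 4 of 13 were expressed (Gzma, Cd160, Sox13 and Tbx21), against 40.2% of all genes. Zbtb16, the factor of innate-like cells, had a mean of 0.223 RPKM. Cd160 was at 16.5, 14.3 and 9.68 RPKM and Sox13 at 7.13, 6.698 and 4.94 RPKM.

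**Figure D2:**
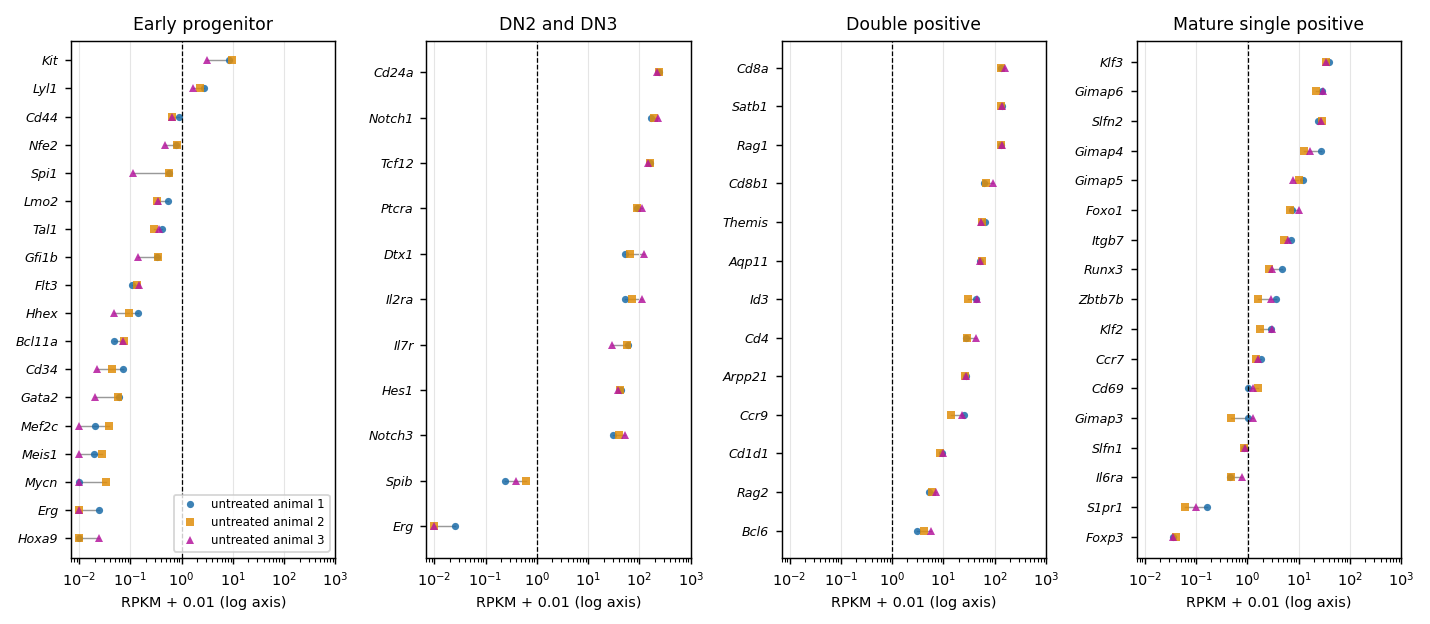
RPKM plus 0.01 (log axis) of genes of 4 stage lists (some members are not drawn), ordered by mean; each point is 1 untreated animal, the grey line spans the 3 and the dashed line marks 1 RPKM. The progenitor genes lie left of the line except Kit and Lyl1, and all DP genes drawn lie right of it.

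All 26 factors on the T-lineage list were expressed, while of 464 transcription factor genes over 25 families 188 (40.5%) were, near the 40.2% of all genes. Tcf7 was 5.22 times as high as Ets1, the next factor, which stood at 310.1, 319 and 288 RPKM. The 20 highest were then Myb, Lef1, Tcf12, Myc, Satb1, Tfdp1, Cbfb, E2f4, Tcf3, Atf4, Ikzf3, Bcl11b, Sox4, Ets2, Nfkb1, Hes6, Max and Lmo4. Myb, the proto-oncogene of immature blood cells, held 159, 165 and 160.01 RPKM, and Lef1, the relative of Tcf7, held 128, 148 and 204 RPKM, highest in animal 3. Bcl11b, which commits cells to the T lineage, stood at 72.8, 79.5 and 76.1 RPKM and Gata3, which specifies it, at 54.4, 50.7 and 47.5 RPKM. The E protein gene Tcf3 was at 95.3, 102 and 111 RPKM, and the HMG-box gene Tox at 33.1, 29.8 and 27.8 RPKM. Runx1 was at 35.2, 38.95 and 39.4 RPKM, above its relative Runx3 in each animal. Neighbours in the order such as Myb, Lef1 and Tcf12 had overlapping ranges.

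Notch receptors and targets were expressed, ligands mostly not. Notch1 was at 168, 192 and 227 RPKM (mean 196 ± 29.9) and Notch3 at 30.1, 40.2 and 52.5 RPKM, so Notch1 was 5.57, 4.78 and 4.32 times as high, and Notch2 was at 4.48, 5.45 and 5.0003 RPKM. Notch4 had a mean of 0.122 RPKM. Of 7 ligand genes only Dlk1, a Notch-related protein without the usual receptor-binding domain, was expressed, at 1.75, 2.34 and 0.334 RPKM. The canonical ligands Dll1, Dll3, Dll4, Jag1 and Jag2 had means from 0 to 0.924 RPKM, and Dlk2 one of 0.0703 RPKM. Of the nuclear and processing genes, 10 of 11 were expressed, among them Rbpj at 8.08, 7.74 and 7.08 RPKM, the coactivator Maml1 at 11.3, 11.7 and 11.8 RPKM and the sheddases Adam10 at 37.8, 37.0004 and 36.4 and Adam17 at 21.95, 21.7 and 21.9 RPKM. The gamma-secretase genes Ncstn, Psenen, Aph1a and Psen2 ran from 3.74 to 26.4 RPKM. Maml3 was at a mean of 3.53 RPKM and Maml2 at 0.759 RPKM.

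Among 11 Notch targets, 9 were expressed. Dtx1, an E3 ligase of the pathway, was at 53.3, 65.4 and 124 RPKM and Nrarp, its feedback inhibitor, at 14.9, 15.5 and 29.7 RPKM. Both were highest in animal 3, as were Notch1 and Notch3. Hes1 was the lowest in that animal, at 43.3, 42.1 and 38.9 RPKM, and Heyl stood at 20.3, 22.9 and 20.4 RPKM. Hes5 was at 1.62, 1.38 and 0.657 RPKM, while Hey1 and Hey2 had means of 0.0192 and 0 RPKM. The growth gene Myc was at 149.6, 142 and 164 RPKM (mean 152 ± 11.1). Ccnd1, encoding cyclin D1, was at 39.3, 28.9 and 29.1 RPKM and Igf1r, the insulin-like growth factor receptor, at 7.65, 7.55 and 7.42 RPKM. In all, 23 of 33 Notch pathway genes (69.7%, against 40.2% of all genes) were expressed. Of the 23, 3 had a range of at least 2-fold (Dlk1, Dtx1 and Hes5), where 3.83% of all expressed genes had one.

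Expressed T-ALL oncogenes belonged to signalling and to the Myc and Myb group rather than to the ectopic transcription factors of human T-ALL. Of 64 genes on the list, 36 (56.3%) were expressed, against 40.2% of all genes and 47.6% of protein-coding genes. By role these were 25 of 27 signalling genes, 9 of 14 in the Myc, Myb and others group, 2 of 9 basic helix-loop-helix and LMO genes and 0 of 14 homeobox genes. Lyl1 and Lmo4 were the expressed members of the third group, Lmo4 at 61.2, 64.8 and 75.4 RPKM. Tal1 was at 0.407, 0.276 and 0.346 RPKM and Lmo2 at 0.541, 0.318 and 0.334 RPKM, and 4 members of that group had 0 counts, Lmo1 among them. Of the homeobox genes 10 had 0 counts in all 3 animals, including Tlx1, Tlx3 and Nkx2-1. Across 39 HOX genes, none was expressed and 36 had no count.

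Within the Myc, Myb and others group, Mybl2 was at 21.1, 21.7 and 23.7 RPKM and the Polycomb gene Bmi1 at 43.4, 45.8 and 39.4 RPKM, and the demethylase gene Kdm2b was at 16.5, 16.8 and 16.7 RPKM. Mecom, a zinc-finger oncogene of myeloid leukemia, was low but expressed at 3.52, 4.62 and 1.798 RPKM, with animal 3 the lowest. The anti-apoptotic gene Mcl1 was at 60.1, 57.6 and 56.6 RPKM and its relative Bcl2 at 2.88, 2.62 and 2.49 RPKM, so Mcl1 was 20.9, 21.9 and 22.8 times as high. Spi1, Mef2c, Mycn, Mycl and Erg were not expressed.

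Of the signalling oncogenes, Lck led the list. Ccnd3, encoding the cyclin D3 of proliferating thymocytes, was at 189, 194 and 227 RPKM, which was 4.81, 6.71 and 7.77 times Ccnd1, while Ccnd2 was under 1 RPKM at 0.155, 0.236 and 0.151 RPKM. Its partner kinase gene Cdk6 was at 25.9, 32.7 and 35.1 RPKM, and the other partner Cdk4 was 18.0, 14.1 and 12.7 times as high. Of the Jak-Stat genes, Jak1 was at 69.4, 63.04 and 57.96 RPKM, Jak3 at 11.4, 10.8 and 11.8 RPKM, Stat5a at 43.5, 48.6 and 49.2 RPKM and Stat5b at 53.3, 55.6 and 62.3 RPKM. Nras stood at 32.2, 34.1 and 32.3 RPKM, and Rasgrp1, which loads Ras with GTP in T cells, at 71.5, 66.4 and 58.7 RPKM. Akt1 was at 105, 105 and 110.03 RPKM, Akt2 at 23.7, 24.5 and 25.2 RPKM, Pik3cd at 21.8, 20.5 and 24.8 RPKM and Pik3r1 at 31.2, 37.8 and 29.2 RPKM. Pim1, Pim3 and Pim2, encoding survival kinases, had means of 25.7, 18.9 and 5.67 RPKM. Dnm2, Abl1 and Ptpn11 had means of 39.7, 38.01 and 43.8 RPKM. Kit, Il7r and Mecom were the oncogenes with a range of at least 2-fold, 3 of 36 expressed, where 3.83% of all expressed genes had one. Animal 3 held the lowest value of each, where it was the lowest for 38.9% of all expressed genes.

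**Figure D3:**
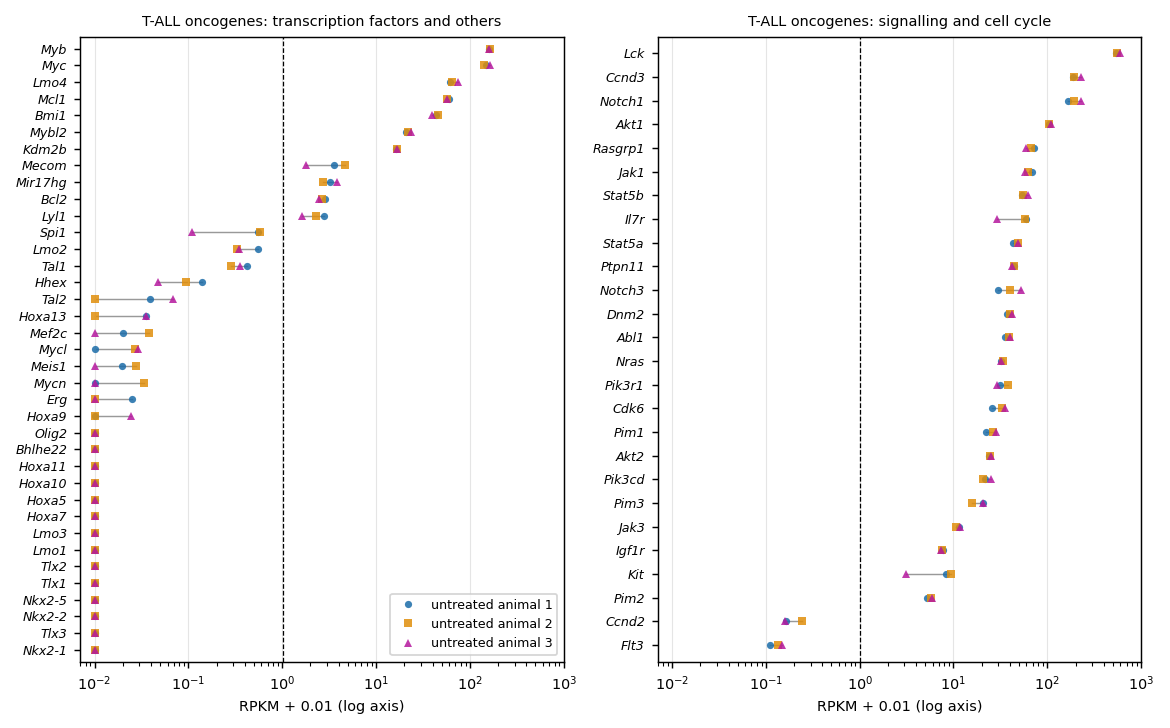
RPKM plus 0.01 (log axis) of T-ALL oncogenes (1 of the 64 is not drawn), ordered by mean within transcription factors and other genes (left) and signalling genes (right); each point is 1 untreated animal and the dashed line marks 1 RPKM. Points at the left edge are genes with 0 counts; all homeobox genes lie left of the line, and all signalling genes drawn except Ccnd2 and Flt3 lie right of it.

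The oncogenic Mir17hg, host of the miR-17 to miR-92a cluster, was expressed at 3.21, 2.69 and 3.83 RPKM. It was the only expressed one of 9 microRNA host genes (11.1%), where 10.5% of long non-coding RNAs and 40.2% of all genes were expressed. Its counts do not measure the mature microRNAs, and the annotated gene starts at 115044390 on chromosome 14 of GRCm38, after most of the hairpins. The 6 hairpins had between 0 and 2 counts in any animal. The mature sequences of the main arm of each are shown (RefSeq, GRCm38.p6, plus strand), since they fall into seed groups. The capitals mark the seed, bases 2 to 8 from the 5′ end.
mmu-miR-17-5p: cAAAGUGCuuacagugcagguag
mmu-miR-20a-5p: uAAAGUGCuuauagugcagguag
mmu-miR-18a-5p: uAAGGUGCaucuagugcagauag
mmu-miR-19a-3p: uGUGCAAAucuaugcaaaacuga
mmu-miR-19b-3p: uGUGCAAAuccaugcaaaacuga
mmu-miR-92a-3p: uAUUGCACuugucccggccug
miR-17 and miR-20a share a seed, as do miR-19a and miR-19b, and those of miR-18a and miR-92a are their own.

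Tumour suppressors of T-ALL were nearly all expressed, 34 of 36, against 47.6% of protein-coding genes. Trp53, encoding p53, was at 124, 126 and 121 RPKM. Of the Cdkn genes, Cdkn2c stood at 51.4, 54.2 and 50.1 RPKM, Cdkn1b at 19.2, 21.002 and 25.2 RPKM and Cdkn1a, the p53 target p21, at 17.4, 17.3 and 10.8 RPKM. Cdkn2a, encoding p16 and p19, was at 1.81, 0.932 and 5.18 RPKM, highest in animal 3, and its range was over 2-fold. Cdkn2b had a mean of 0.0239 RPKM and Wt1 had 0 counts, and these were the members not expressed. Rb1 was at 20.5, 20.99 and 22.7 RPKM, Mdm2 at 30.1, 27.6 and 31.4 RPKM and Atm at 22.3, 20.4 and 19.7 RPKM.

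Of the suppressors that act on transcription and chromatin, the Polycomb genes Ezh2, Suz12 and Eed had means of 171, 118 and 52.2 RPKM. Ezh2 was at 172, 167 and 175 RPKM with little spread. Ncor1, Phf6, Cnot3, Dnmt3a, Kdm6a, Etv6 and Crebbp had means from 12.4 to 56.3 RPKM. The ubiquitin ligase gene Fbxw7, which targets Notch1 and Myc, was at 8.39, 9.403 and 10.1 RPKM. The signalling suppressors Socs1, Sh2b3, Tnfaip3, Cyld, Ptpn2 and Nf1 had means from 7.64 to 13.6 RPKM. Rpl5, Rpl10, Rpl11 and Rpl22 encode ribosomal proteins. Their means were 15.1, 17.97, 14.9 and 149 RPKM, which are uncertain where copies take reads.

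Receptors for cytokines were mostly expressed, with 8 of 8 in the gamma-chain family and 13 of 19 others, against 40.2% of all genes. Of the kinases and STATs on the same list 13 of 15 were. Il2rg, the shared gamma chain, held 103, 97.6 and 88.6 RPKM. Il9r, the interleukin-9 receptor, was at 74.4, 77.1 and 72.2 RPKM with little spread, above Il7r in every animal. Of 22 growth factor receptor kinases 10 (45.5%) were expressed, near the 47.6% of protein-coding genes, led by Pdgfrb at 23.9, 31.3 and 20.2 RPKM, Ephb6 at 10.2, 12.1 and 16.8 RPKM and Igf1r. Ddr1, a collagen receptor, was at 2.93, 4.42 and 9.64 RPKM and had a range of over 2-fold. Of 31 chemokine receptor and adhesion genes, 17 (54.8%) were expressed, against 47.6% of protein-coding genes. Among them were Cxcr4 at 106, 127 and 128 RPKM, Itgal at 89.7, 86.7 and 108 RPKM and Itgb1 at 102, 97.2 and 88.4 RPKM.

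Genes of the cell cycle were high. Of 54 such genes, 52 were expressed and 51 reached 10 RPKM, against 40.2% and 24.7% of all genes. Their median coefficient of variation was 4.75%, between those of all genes from 10 to 100 RPKM (5.34%) and above 100 RPKM (4.46%). The kinase gene Cdk4 was at 468, 459.9 and 444 RPKM, the clamp gene Pcna at 395, 378 and 407 RPKM, the topoisomerase gene Top2a at 390.1, 383 and 386 RPKM and the helicase gene Mcm6 at 377, 384 and 357 RPKM. Ccnd2 and Cdkn2b were the members not expressed. Of 18 BCL2 family genes 12 (66.7%) were expressed, against 47.6% of protein-coding genes. These included the effector Bax at 78.4, 80.9 and 85.6 RPKM, Bak1 at 67.7, 69.8 and 65.04 RPKM, Mcl1 and the BH3-only gene Bid at 55.7, 57.2 and 52.8 RPKM.

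All 26 metabolic genes were expressed. For this and the next lists, 47.6% of protein-coding genes is the share to set beside the counts. Ldha, encoding lactate dehydrogenase, led at 576, 533 and 530.3 RPKM, followed by Pkm at 367, 366 and 410.3 RPKM. Of the serine pathway, Shmt2 held 193, 222 and 180.4 RPKM and Psat1 179, 180.04 and 135 RPKM. All 13 genes of the Mi-2/NuRD complex, which Ikaros binds, and all 13 Polycomb genes were expressed; the histone-binding Rbbp4 held 184, 175 and 159.9 RPKM and Mta2 170.5, 169.7 and 168 RPKM, and the helicase gene Chd4 stood at 147, 165 and 162 RPKM. Of the class I and interferon genes 22 of 24 were expressed, led by B2m at 682, 689 and 591 RPKM, Psmb8 at 297, 289.7 and 263 RPKM, Psmb9 at 117, 125 and 117 RPKM and Tap2 at 70.6, 77.6 and 73.7 RPKM. Animal 3 was the lowest for 15 of the 22 expressed, where it was the lowest for 38.9% of all expressed genes. Of 24 immediate early and stress genes 16 were expressed. Among the 15 immediate early genes 9 were expressed and 7 reached 10 RPKM, which 24.7% of all genes did. Fos and Jun were low members of that group, at 1.63, 1.69 and 1.17 and 0.687, 1.14 and 0.693 RPKM. The constitutive chaperones Hspa8, Hspd1 and Hspa5 had means of 240.2, 238 and 219.6 RPKM.

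Markers of other blood cells were low, with some clear exceptions. Of 19 B-cell markers 5 were expressed, where 47.6% of protein-coding genes were. Ighm, the IgM heavy chain gene, gave most of the B-cell marker sum at 235, 238 and 139.5 RPKM. The defining B-cell genes Pax5, Ebf1 and Ms4a1 had 0 counts in each animal. The class II genes H2-Ab1 and H2-Aa stood at 31.4, 29.1 and 25.1 and 16.3, 8.46 and 5.91 RPKM. Of 11 natural killer and cytotoxic markers 2 were expressed, Gzma and Tbx21, and the granule partners of Gzma were near 0, with Prf1 at 0.178, 0.0883 and 0.326 RPKM and Gzmb at 0 counts. Of 14 stromal and endothelial markers 2 were expressed, Pdgfrb and Col1a2 at 21.4, 19.7 and 21.9 RPKM, while Dcn, Lum, Ccl19 and Ccl21a had 0 counts. No platelet marker of 8 was expressed, and of 9 dendritic markers Tcf4 and Irf8 were, at 7.22, 8.31 and 5.75 and 5.17, 5.04 and 4.52 RPKM.

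The erythroid sum was highest in animal 3, while the myeloid sum was highest in animal 2 and lowest in animal 3. The summed level of 13 erythroid markers was 26.4, 15.3 and 102.4 RPKM, and 5 of the 7 expressed had a range of at least 2-fold, against 3.83% of all expressed genes. Hba-a2, an alpha globin gene, was at 5.01, 2.36 and 32.4 RPKM and Hbb-b1, a beta globin gene, at 5.73, 3.24 and 25.96 RPKM, and animal 3 was far above both others. Of the erythroid factors, Gata1 was at 2.53, 1.99 and 2.57 RPKM and did not follow. Myeloid markers summed to 51.2, 71.8 and 40.9 RPKM, with 17 of 27 expressed, against 40.2% of all genes, and 1 at 10 RPKM or more. Animal 3 was lowest for 12 of the 17, where it was lowest for 38.9% of all expressed genes. S100a9, a neutrophil calcium-binding protein, was at 9.72, 14.3 and 7.13 RPKM and the neutrophil elastase gene Elane at 1.05, 2.14 and 0.0727 RPKM. The part of these cells in the differences between animals was not tested.

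**Figure D4:**
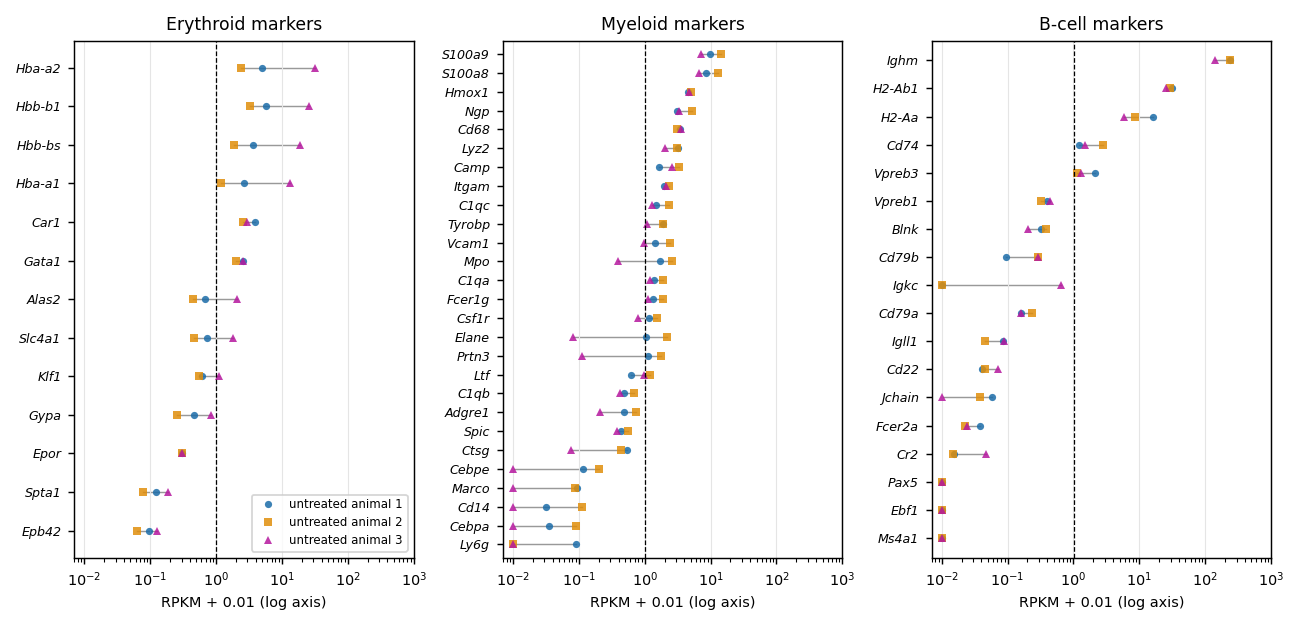
RPKM plus 0.01 (log axis) of erythroid, myeloid and B-cell markers (1 is not drawn); each point is 1 untreated animal and the dashed line marks 1 RPKM. The 4 globin genes are highest in animal 3, and of the B-cell markers Ighm stands far above the rest while Pax5, Ebf1 and Ms4a1 lie at 0 counts.

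Most genes agreed closely between the animals. The median coefficient of variation over the 3 animals was 6.46% for expressed genes, 10.1% from 1 to 10 RPKM, 5.34% from 10 to 100 RPKM and 4.46% above. The biological coefficient of variation, the spread beyond counting error estimated by edgeR over 12316 genes, was 12.4%, and that between the runs of an RNA was 0.988%. It was 7.78% without animal 3, against 13.1% without animal 1 and 15.5% without animal 2. Log2 RPKM plus 0.1 correlated across the 10938 expressed genes at Pearson r 0.991 for animals 1 and 2, 0.981 for 1 and 3, and 0.984 for 2 and 3. This is a description across genes, which are not independent replicates.

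A range of at least 2-fold between the highest and lowest animal was found for 419 of the 10938 expressed genes (3.83%), and for 107 of the 10903 genes expressed on average over animals 1 and 2 when animal 3 was left out. Of the genes at 10 RPKM or more it was 67 of 6706 (0.999%), and animal 3 was the highest in 29 and the lowest in 32 of the 67. Animal 3 stood at least 2-fold from both others in 160 genes, above them in 68 (0.622%) and below in 92 (0.841%). Animal 1 did so in 58 genes, above in 15 (0.137%) and below in 43 (0.393%), and animal 2 in 47 genes, above in 17 (0.155%) and below in 30 (0.274%). Of all expressed genes, animal 1 was the highest in 33.7% and the lowest in 37.4%, animal 2 in 27.2% and 23.7%, and animal 3 in 39.1% and 38.9%.

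The 20 most variable expressed genes included 4 receptor segments (Trbv31, Traj3, Traj33 and Traj21), 3 small nucleolar RNAs (Snord98, Snord89 and Snord11), the processed copy Rps12-ps16 and 3 globin genes. Of the rest, Marcks, a substrate of protein kinase C, was at 0.4598, 1.63 and 16.7 RPKM, and Ace, encoding angiotensin-converting enzyme, at 0.631, 1.46 and 10.6 RPKM. Both were highest in animal 3, as were Iltifb, Plod2 and Add3. Bcas1 was at 8.47, 7.42 and 0.714 RPKM, lowest in animal 3, and Cox6a2, a muscle-type subunit of cytochrome oxidase, at 2.37, 6.56 and 0.355 RPKM. Oprk1, the kappa opioid receptor gene, was highest in animal 2 at 0.437, 6.997 and 1.71 RPKM. Elane completed the list, and 6 of the 20 were under 300 bases. Variable genes at higher levels, chosen after their values were seen, included Cym, the digestive protease chymosin, at 197, 115 and 45.99 RPKM, Trf, encoding transferrin, at 82.5, 74.5 and 21.4 RPKM, and Agfg1 at 36.1, 42.5 and 104 RPKM.

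At the other end, the 10 genes with the smallest range at 10 RPKM or more were Zfp869, Trim28, Foxj3, L3mbtl2, Itpr2, Mbd1, Taldo1, Swi5, Pard6g and Csnk1g3. Trim28, a corepressor of zinc-finger proteins, had a mean of 380.5 RPKM with a standard deviation of 0.333 RPKM, and Taldo1, an enzyme of the pentose phosphate pathway, 145 RPKM with 0.272 RPKM.

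**Figure D5:**
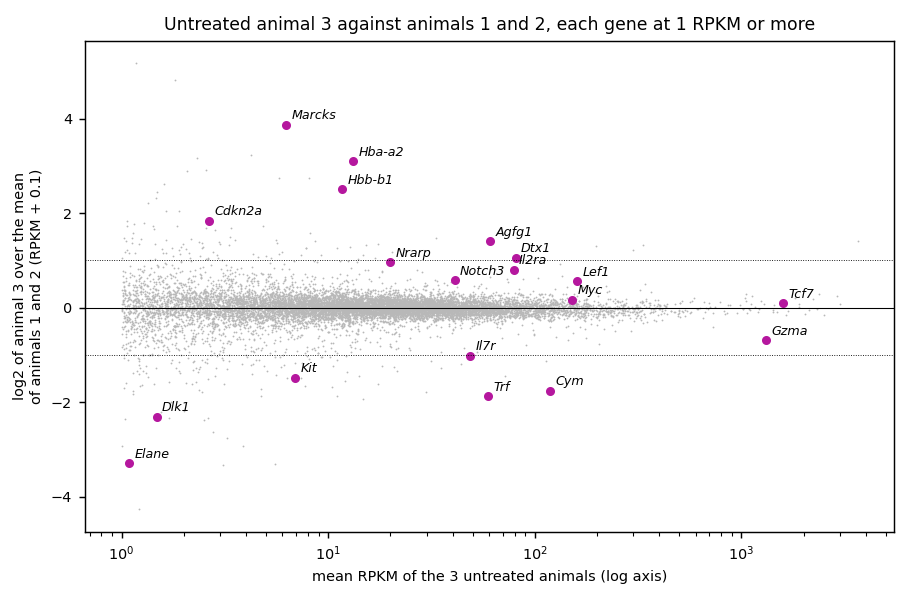
Each expressed gene's log2 ratio of untreated animal 3 to the mean of animals 1 and 2 (RPKM plus 0.1), against the mean RPKM of the 3 animals (log axis); dotted lines mark a 2-fold difference and labelled points are genes named in the text. Hba-a2, Marcks and Agfg1 lie above the upper line and Kit, Cym and Trf below the lower one, while Tcf7 and Myc lie near 0.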

How the data were processed

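RNA-seq was performed on sorted spleen cells of mice carrying ALL101. The deposited values are raw gene counts, listed by Entrez identifier beside a gene length. The submitters' processing notes name CASAVA 1.8.1, featureCounts and the build mm10. Aligner, annotation, strand setting and the handling of reads with several matches: not given in the sources used here. The series table equalled the per-library tables in 12 of 12 libraries. Symbols came from RefSeq (GRCm38.p6), or from GENCODE where RefSeq gave none and for mitochondrially encoded genes. They were found for 25293 of 27179 identifiers (93.1%). Identifiers without a symbol took 0.677% to 0.942% of an animal's counts and stayed in the totals.

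The 2 runs of each RNA were summed, which gave 3 untreated animals. RPKM was computed as counts per kilobase of the deposited length per 1000000 counts. No groups were tested against each other and no p-value is given. The spread was estimated in R 4.3.3 with edgeR 4.0.16 (an intercept alone, TMM factors, filterByExpr). Counts simulated with that same spread for all genes were also fitted, which cannot check a spread that differs between genes or animals. The order of genes by range and the log ratios used a pseudocount of 0.1 RPKM, while the counts of genes with a 2-fold range used none. Ranking by level used genes of at least 300 bases.

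Named genes were the 20 highest (placeholder symbols, ribosomal protein and mitochondrially encoded genes left out), the 20 highest transcription factor and 15 highest CD-numbered genes, the 20 with the largest and 10 with the smallest range between animals, the members of the identity, stage, Notch, oncogene and suppressor lists, up to 4 members of each other list and the receptor segments at 1 RPKM or more, of which those under the joining loci are given by their leading members. Genes that a sentence needs beside these, such as further members of a list, were chosen after their values were seen. A few of the genes named by these criteria are left out of the text and figures and not reported here. Of 563 listed genes in 31 lists, 560 matched; Hbb-b2, Hbb-bt and Ahsp did not. The members and lists were chosen with earlier results of these data known. Alternatives were other scalings, TPM, DESeq2 1.42.0 dispersions, other thresholds and gene lengths, each run alone and leaving out each animal.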

Additional observations from a re-analysis of the deposited data

How the results depend on the processing

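The number of expressed genes stayed between 10038 and 11874 under the alternatives run, and 28 of 32 lists and families kept their count of expressed members within 1.5 times under every one. The exceptions were the early progenitor list (2 members, 4 with TPM and 4 at a threshold of 0.5 RPKM), the stroma and endothelium list (2 members, 4 with TPM), and at a threshold of 2 RPKM the B-cell list (3 in place of 5) and the myeloid list (8 in place of 17). The thresholds of 0.5 and 2 RPKM for lists and the longest-transcript length were chosen after seeing the data. The number of genes with a 2-fold range was 419. It was 700 with TPM, whose values are all higher, so that more low genes pass 1, 1943 with no filter but 10 counts, 122 at 5 RPKM, and between 107 and 295 with 1 animal left out, lowest without animal 3. The biological coefficient of variation of 12.4% was 13.1% without a filter, 11.004% and 10.9% for run 1 and run 2 alone, 9.29% as a DESeq2 median over genes, and between 7.78% and 15.5% with 1 animal left out. The 100 highest genes took 14.8% of the counts on average and 14.2% without mitochondrially encoded genes. Of 618 genes followed, 562 moved by more than 1 SD under TPM and 41 under some other setting. Leaving out 1 of the 3 animals cannot move a mean by more than 1 SD, so those settings could not show a move. No paired analysis was possible because the results describe 1 group and come from no test of a replicate block. Depth limits low genes: 3 counts are 0.0454 to 0.0502 RPKM in a 2 kb gene.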

Other observations

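The highest long non-coding RNAs were Snhg1 at 221, 229.8 and 229 RPKM, AI662270 at 222, 225 and 203 RPKM and 2410006H16Rik at 128, 161 and 153 RPKM. Of lower ones, chosen after their values were seen, Zfas1 was at 102, 110.4 and 109.8 RPKM, Snhg6 at 72.1, 76.8 and 91.7 RPKM and Gas5 at 62.3, 60.99 and 64.6 RPKM. Lockd, which lies beside Cdkn1b, was at 38.3, 40.4 and 42.4 RPKM. In all, 219 of 2077 annotated long non-coding RNAs (10.5%) were expressed. Of 123 small nucleolar RNA genes, 83 were expressed, though these are short genes on which few counts give a high RPKM.

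Several genes at 10 RPKM or more with a 2-fold range are not usual T-cell genes, and were chosen after their values were seen. Bex1, a gene of neural cells, was at 5.36, 34.3 and 18.6 RPKM, highest in animal 2. Rbpms, an RNA-binding protein of muscle, was at 16.95, 12.4 and 3.95 RPKM and Rgma, a guidance molecule, at 6.93, 10.3 and 21.2 RPKM. Asns, encoding asparagine synthetase, was at 19.4, 39.7 and 15.9 RPKM, with animal 2 more than 2-fold above both others, and it was the metabolic list's member with a 2-fold range. The adhesion protease gene Adam19 was at 11.3, 17.4 and 32.8 RPKM and the fructose-bisphosphatase gene Fbp1 at 20.3, 31.6 and 10.8 RPKM.

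Immunoglobulin segments gave 5 of 260 genes at 1 RPKM or more (1.92%, against 40.2% of all genes), and 242 had no count.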
